A study of Mus musculus with 2 samples.

Results

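The 10 genes described here are *Trp53*, which encodes the transcription factor p53, and 9 genes known as p53 targets or growth arrest genes: *Cdkn1a*, *Mdm2*, *Ccng1*, *Phlda3*, *Sesn1*, *Sesn2*, *Plk2*, *Btg2* and *Trp53inp1*. They were looked up in the table by gene symbol. All 10 were among the 19829 genes with a normalized read count (reads per 1000000 of the scaled library) in both libraries, and all 10 reached a normalized read count of 10 in at least 1 library, as did 10294 genes in total.

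Messenger RNA of whole kidney was sequenced from mice labelled as having acute kidney injury (AKI), with 1 wild-type library (WT+AKI) and 1 library with transgenic *Inmt* (TG+AKI). Whether a library came from 1 mouse or from several is not stated in the sources used here. The libraries are called the WT kidney and the TG kidney here. *Inmt* encodes indolethylamine N-methyltransferase, and the transgene overexpresses it in proximal tubules; the promoter that drives it is not given in the sources used here. Per the study's methods, the mice of both groups had received voclosporin, a calcineurin inhibitor. It was given at 30 mg/kg per day by intraperitoneal injection from 8 to 10 weeks of age. Both groups underwent 30 min of ischemia of both kidneys and reperfusion at 14 weeks of age, as males of the C57BL/6 background. The study's text differs between places on the length of dosing (2 or 6 weeks) and on the time from ischemia to collection (24 or 48 h), the treatment field of both sample labels says that there was none although the library names include AKI, and the title of the TG+AKI sample also speaks of a conditional knockout. No sham-operated or untreated kidney was analysed here, so the comparison is between the TG kidney and the WT kidney, both after ischemia. The study reports lower serum creatinine and less tubular injury in the transgenic mice than in the wild-type mice after ischemia. Equal injury of both kidneys can therefore not be assumed, although both library names include AKI. There was no replicate of either group, so no test between conditions was possible, and the 95% intervals below cover counting error only.

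The libraries held 38542764 reads in genes for the WT kidney and 36427421 for the TG kidney, and a normalized read count of 10 stood for 424.0 and 331.2 reads. *Inmt* itself was at 10.4 in the WT kidney (443 reads) and at 403 in the TG kidney (13339 reads), which was 38.5-fold higher (95% interval 35.1 to 42.5), the direction that the labels give. Markers of proximal tubule, thick ascending limb, collecting duct, podocytes and endothelium were found in both libraries, which fits the labelled tissue.

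p53 is held at a low level in unstressed cells because the ubiquitin ligase Mdm2 marks it for degradation, and DNA damage, hypoxia and other stress release it from that control. Free p53 binds pairs of a short motif, the p53 half-site, near its target genes, and among these are brakes on the cell cycle, inducers of cell death, antioxidant proteins and *Mdm2* itself, which closes a feedback loop. In the injured renal tubule, p53 and p21, the product of *Cdkn1a*, are known for arresting cells in the cycle and for their part in tubular cell death and repair.

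The p53 half-sites in the promoters of some of these genes are shown because p53 acts through this motif. RefSeq promoter windows (GRCm38.p6, each covering 250 bases before and 50 bases after a start site) were found for 9 of the 10 genes, in 11 windows, with none for *Trp53inp1*. An exact 10-base half-site on either strand lay in 5 of the 11 windows (45.5%), against 8.36% of all 32851 windows, and those 5 windows belonged to *Trp53*, *Cdkn1a*, *Mdm2*, *Ccng1* and *Sesn1*. A pair of half-sites with a spacer of 0 to 13 bases and at most 1 departure from the consensus in all lay in 2 member windows (*Cdkn1a* and *Ccng1*), against 0.627% of all windows, and each of the pairs printed here departs from the consensus at 1 base. These matches are a description of letters, and they do not show binding. The sites follow, 5′ to 3′ on the strand named, with the half-site or the pair of half-sites in capitals and 5 flanking bases on each side:
Cdkn1a, pair without spacer, chr17:29090923-29090952, plus strand, 51 bases before the upstream start site: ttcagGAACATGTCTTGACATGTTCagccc
Ccng1, pair without spacer, chr11:40755457-40755486, minus strand, 195 bases before the start site: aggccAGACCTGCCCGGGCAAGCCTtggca
Mdm2, half-site, chr10:117710930-117710949, minus strand, 186 bases before the start site: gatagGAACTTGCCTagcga
Trp53, half-site, chr11:69580279-69580298, plus strand, 75 bases before the start site: cggaaGGACTTGCCCttact
Sesn1, half-site, chr10:41887261-41887280, plus strand, 173 bases before the start site of 1 of its windows: ccttcAAGCTTGTTTttgct

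The *Cdkn1a* pair lies 2841 bases before the gene's second annotated start site in this table, and the window also holds 1 exact pair with a spacer of 12 bases. No exact half-site lay in the windows of *Phlda3*, *Sesn2*, *Plk2* and *Btg2*, which says only that these letters are not within that distance of the start site. Of the 19 windows of the members' paralogs, listed below, 0 held an exact half-site.

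In the TG kidney, 8 of the 10 genes were at least 2-fold lower than in the WT kidney on the log2(normalized read count + 1) scale. On that scale 0 were at least 2-fold higher, and all 10 log2 differences were below 0. Among all 10294 genes, 733 (7.12%) were at least 2-fold lower and 591 (5.74%) at least 2-fold higher, and 5020 (48.8%) had a log2 difference below 0. The median log2 difference was −1.90 over the 10 genes and 0.01 over all genes. The summed normalized read count of the 10 genes was 2993 in the WT kidney and 783 in the TG kidney. In bulk RNA, fewer cells of a type and less RNA per cell cannot be told apart. *Cdkn1a* had the lowest log2 difference (−4.18) and *Sesn1* the highest (−0.02) of the 10. *Phlda3* passed the filter only through its level in the WT kidney, and the other 9 genes reached a normalized read count of 10 in both libraries.

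**Figure D1:**
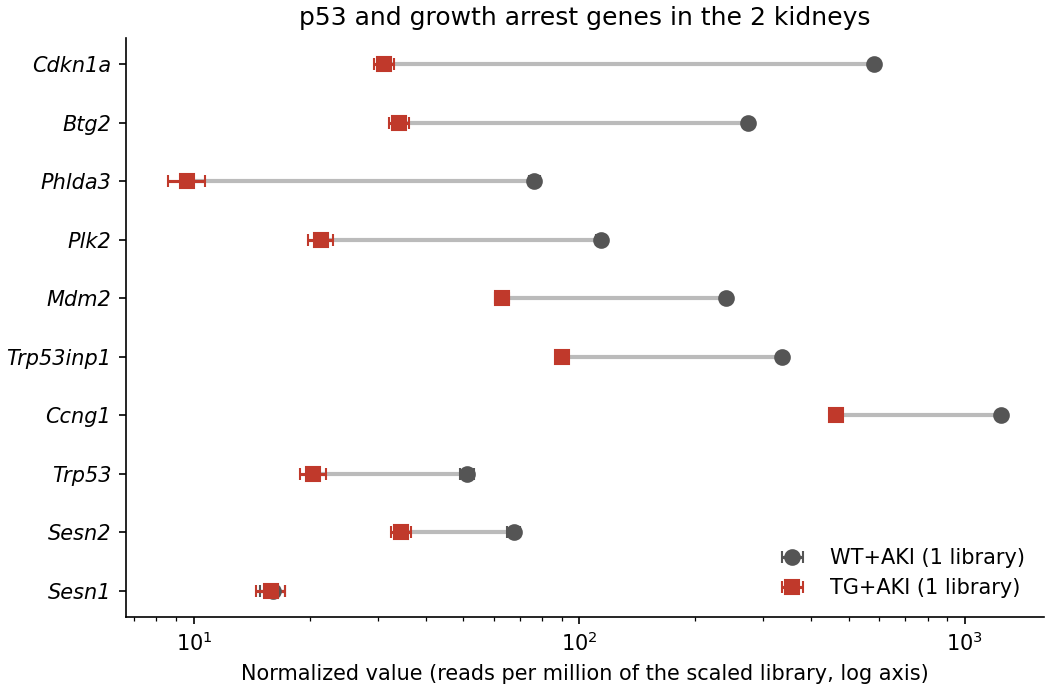
Normalized read count (scaled reads, log axis) of each gene in the WT+AKI kidney (grey circles) and the TG+AKI kidney (red squares), with bars for 95% Poisson counting intervals, ordered by the difference. The points of *Sesn1* lie on each other (16.0 and 15.8), while those of *Cdkn1a* lie farthest apart (581 and 31.2).

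The transcription factor and its feedback inhibitor were both lower. *Trp53* (Gene ID 22059, chr11:69580359-69591873, plus strand) had a normalized read count of 51.0 in the WT kidney (2164 reads) and 20.4 in the TG kidney (676 reads). Its log2 difference was −1.28, and it was 2.50-fold lower in the TG kidney (95% interval 2.29 to 2.73). *Mdm2* (Gene ID 17246, chr10:117688875-117710758, minus strand), which encodes the ligase that turns p53 over, was at 239.6 in the WT kidney (10158 reads) and at 62.9 in the TG kidney (2084 reads). The difference of *Mdm2* was larger than that of *Trp53*, at −1.91 on the log2 scale and 3.81-fold lower (95% interval 3.63 to 3.99). RNA levels do not give the amount of p53 protein, which is set mostly after translation and was not measured here.

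Among the genes that act on the cell cycle, *Cdkn1a* differed most. *Cdkn1a* (Gene ID 12575, chr17:29090976-29100727, plus strand) encodes p21, an inhibitor of cyclin-dependent kinases, and its normalized read count was 581 in the WT kidney (24638 reads) and 31.2 in the TG kidney (1032 reads). It was 18.6-fold lower in the TG kidney (95% interval 17.5 to 19.9), with a log2 difference of −4.18 that ranked 19 from the lowest among the 10294 genes. The annotation places a gene, AC167363.2, on the opposite strand of *Cdkn1a*, and whether reads were counted by strand is not stated in the sources used here. *Btg2* (Gene ID 12227, chr1:134075170-134079120, minus strand), an antiproliferative gene whose protein recruits the machinery that shortens mRNA tails, was at 274 in the WT kidney (11605 reads) and at 34.1 in the TG kidney (1130 reads). It was 8.02-fold lower (95% interval 7.55 to 8.53), with a log2 difference of −2.97.

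*Plk2* and *Ccng1* were also lower, by less. *Plk2* (Gene ID 20620, chr13:110395046-110400844, plus strand), which encodes a polo-like kinase induced by stress, was at 114 in the WT kidney (4823 reads) and at 21.3 in the TG kidney (706 reads), a 5.34-fold lower level (95% interval 4.93 to 5.78). *Ccng1* (Gene ID 12450, chr11:40748552-40755311, minus strand) encodes cyclin G1, which brings a phosphatase to Mdm2, and it was at 1238 in the WT kidney (52479 reads) and at 463 in the TG kidney (15328 reads). It was 2.67-fold lower (95% interval 2.63 to 2.72). With the deepest reads of the set, *Ccng1* had the narrowest interval and yet the smallest difference, −1.42 on the log2 scale, of the 4 cell cycle genes *Cdkn1a*, *Btg2*, *Plk2* and *Ccng1*.

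The genes tied to cell death and survival were both lower. *Phlda3* (Gene ID 27280, chr1:135766119-135769136, plus strand) encodes a pleckstrin homology domain protein that holds back the survival kinase Akt, and it was at 76.4 in the WT kidney (3240 reads) and at 9.57 in the TG kidney (317 reads). It was 7.98-fold lower (95% interval 7.11 to 8.99), which overlaps the interval of *Btg2*, so the folds of these genes were not told apart by their reads. *Trp53inp1* (Gene ID 60599, chr4:11156431-11174379, plus strand) encodes a p53-induced nuclear protein that acts in cell death and autophagy, and it was at 336 in the WT kidney (14244 reads) and at 90.0 in the TG kidney (2982 reads). Its fold was 3.73 (95% interval 3.59 to 3.88), which overlaps that of *Mdm2*.

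The sestrins, stress proteins that restrain the growth kinase mTORC1, were the 2 genes that did not reach a 2-fold difference. *Sesn2* (Gene ID 230784, chr4:132492032-132510501, minus strand) was at 67.5 in the WT kidney (2861 reads) and at 34.5 in the TG kidney (1141 reads), with a log2 difference of −0.95 and a fold of 1.96 (95% interval 1.83 to 2.10). *Sesn1* (Gene ID 140742, chr10:41809935-41908424, plus strand) was at 16.0 in the WT kidney (679 reads) and at 15.8 in the TG kidney (524 reads). Its TG+AKI to WT+AKI ratio was 0.988, and the 95% interval from 0.880 to 1.11 was the only one of the 10 that held 1. The gene has an exact half-site in 1 of its windows, shown above, as do 4 of the 8 genes that were at least 2-fold lower, of which *Trp53inp1* had no window to search.

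**Figure D2:**
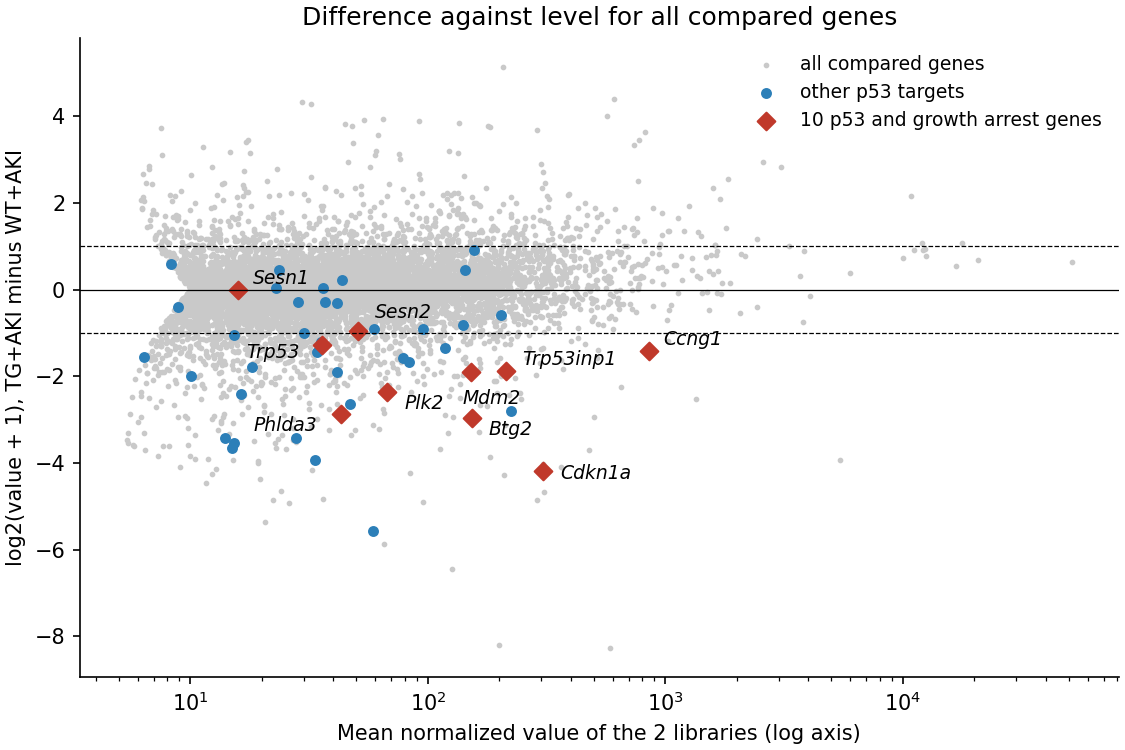
Difference between the libraries in log2(normalized read count + 1), TG+AKI minus WT+AKI, against the mean normalized read count of the 2 libraries (log axis) for the 10294 compared genes (grey), the other p53 targets (blue) and the 10 genes (red diamonds), with dashed lines at a 2-fold difference. *Cdkn1a* (−4.18) and *Btg2* (−2.97) lie at the lower edge of the cloud at their level, and *Sesn1* (−0.02) lies at its centre.

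The order of the genes by level differed between the kidneys. Per kilobase of the longest annotated transcript, the normalized read counts in the WT kidney ran from *Ccng1* (352) and *Cdkn1a* (279) through *Btg2* (99.8), *Mdm2* (76.2), *Trp53inp1* (61.9), *Phlda3* (53.3), *Plk2* (40.6), *Sesn2* (19.4) and *Trp53* (15.6) to *Sesn1* (4.20). In the TG kidney the same measure ran from *Ccng1* (131.8) through *Mdm2* (20.01), *Trp53inp1* (16.6), *Cdkn1a* (15.0), *Btg2* (12.4), *Sesn2* (9.91), *Plk2* (7.61), *Phlda3* (6.67) and *Trp53* (6.23) to *Sesn1* (4.15). *Ccng1* was thus the most abundant and *Sesn1* the least abundant in both kidneys, and *Cdkn1a* held place 2 in the WT kidney and place 4 in the TG kidney. The isoforms in use are not known, and with the union of all annotated exons as the length 7 of the 10 genes in the WT kidney and 2 of the 10 in the TG kidney kept their place. With 1 library per kidney, neighbours in these orders have no replicate spread to be judged by.

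The targets can also be set against *Trp53* within each library, which does not depend on how the libraries were scaled. *Cdkn1a* had 11.4 reads for each *Trp53* read in the WT kidney and 1.53 in the TG kidney, a 7.46-fold lower ratio (95% interval 6.69 to 8.31). *Btg2* (3.21-fold), *Phlda3* (3.19-fold), *Plk2* (2.13-fold), *Mdm2* (1.52-fold) and *Trp53inp1* (1.49-fold) were also lower relative to *Trp53*, each with an interval that leaves out 1. *Ccng1* had 24.3 reads per *Trp53* read in the WT kidney and 22.7 in the TG kidney, and the 95% interval of its fold, 0.978 to 1.17, held 1. *Sesn1* stood the other way, with 0.314 reads per *Trp53* read in the WT kidney and 0.775 in the TG kidney, a ratio 2.47-fold higher (95% interval 2.14 to 2.86), and the *Sesn2* ratio was 1.28-fold higher (95% interval 1.14 to 1.43). Of the 9 targets, 6 were thus lower relative to *Trp53*, 2 were higher, and the interval of 1 held 1.

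Most members have close relatives in the genome that are not, or less, known as p53 targets, and 12 of the 17 paralogs listed reached a normalized read count of 10. Of these 12, 3 were at least 2-fold lower, 0 at least 2-fold higher, and their median log2 difference was −0.23. *Cdkn1b*, which encodes the related cell cycle inhibitor p27, was at 32.0 in the WT kidney and 48.8 in the TG kidney, a ratio of 1.52 (95% interval 1.42 to 1.64). *Cdkn1c*, which encodes p57, was at 20.4 and 20.3, a ratio of 0.996 (95% interval 0.899 to 1.10). The reads of *Cdkn1a* were 18.2 for each read of *Cdkn1b* in the WT kidney and 0.639 in the TG kidney, so the more abundant inhibitor by reads differed between the kidneys. Per kilobase of the longest transcript, *Cdkn1a* was at 279 against 7.03 for *Cdkn1b* in the WT kidney and at 15.0 against 10.7 in the TG kidney. Per kilobase of union exons the order in the TG kidney was the opposite, at 8.77 for *Cdkn1a* against 10.7 for *Cdkn1b*.

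Other relatives of the members were near a ratio of 1. *Mdm4*, the partner of Mdm2 in restraining p53, was at 94.7 in the WT kidney and 89.8 in the TG kidney, a ratio of 0.949 (95% interval 0.904 to 0.995). *Trp53inp2* was at 169 and 170.6, a ratio of 1.01 (95% interval 0.976 to 1.05), and *Ccng2* at 22.6 and 23.2, a ratio of 1.03 (95% interval 0.935 to 1.13). The lists overlap here, since *Ccng2* is also counted among the further p53 targets below and *Mdm4* among the p53 regulators. *Tob1*, an antiproliferative relative of *Btg2*, was at 95.6 and 99.8, a ratio of 1.04 (95% interval 0.997 to 1.09), while *Tob2* was at 65.5 and 50.1, a ratio of 0.764. Relative to these genes within each library, *Mdm2* was 3.61-fold lower against *Mdm4* (95% interval 3.38 to 3.86), *Trp53inp1* 3.77-fold against *Trp53inp2* (95% interval 3.57 to 3.97), *Ccng1* 2.75-fold against *Ccng2* (95% interval 2.50 to 3.03) and *Btg2* 8.37-fold against *Tob1* (95% interval 7.75 to 9.05).

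In the polo-like kinase, pleckstrin homology and BTG families, relatives were lower as well. *Plk3*, another stress-induced polo-like kinase, was at 72.0 in the WT kidney and 10.7 in the TG kidney, 6.72-fold lower (95% interval 6.02 to 7.52), so that the ratio of *Plk2* to *Plk3* reads was 1.26-fold higher in the TG kidney (95% interval 1.10 to 1.45). *Phlda1* was at 23.7 and 3.74, 6.33-fold lower (95% interval 5.25 to 7.69), so that *Phlda3* relative to *Phlda1* was 1.26-fold lower (95% interval 1.004 to 1.58), and *Phlda2* was under the filter in both libraries at 6.96 and 5.38. *Btg1* was at 108.9 and 38.7, 2.81-fold lower (95% interval 2.64 to 2.99), and *Btg2* relative to *Btg1* was 2.86-fold lower (95% interval 2.61 to 3.12). *Btg3* was at 21.6 and 12.1, with a log2 difference of −0.79; 11.6% of the 100-base words of *Btg3* are shared with Gm7334, so its reads are uncertain. *Sesn3*, the remaining sestrin, was at 15.5 and 10.9, a ratio of 0.701 (95% interval 0.615 to 0.799). *Trp63*, the p53 relative of stratified epithelia, had 31 reads in the WT kidney and 14 in the TG kidney, and *Plk1*, *Plk4* and *Plk5* were also under the filter, with 58, 226 and 39 reads in the WT kidney and 20, 99 and 37 in the TG kidney. *Trp73* and *Btg4* were not analysed here.

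**Figure D3:**
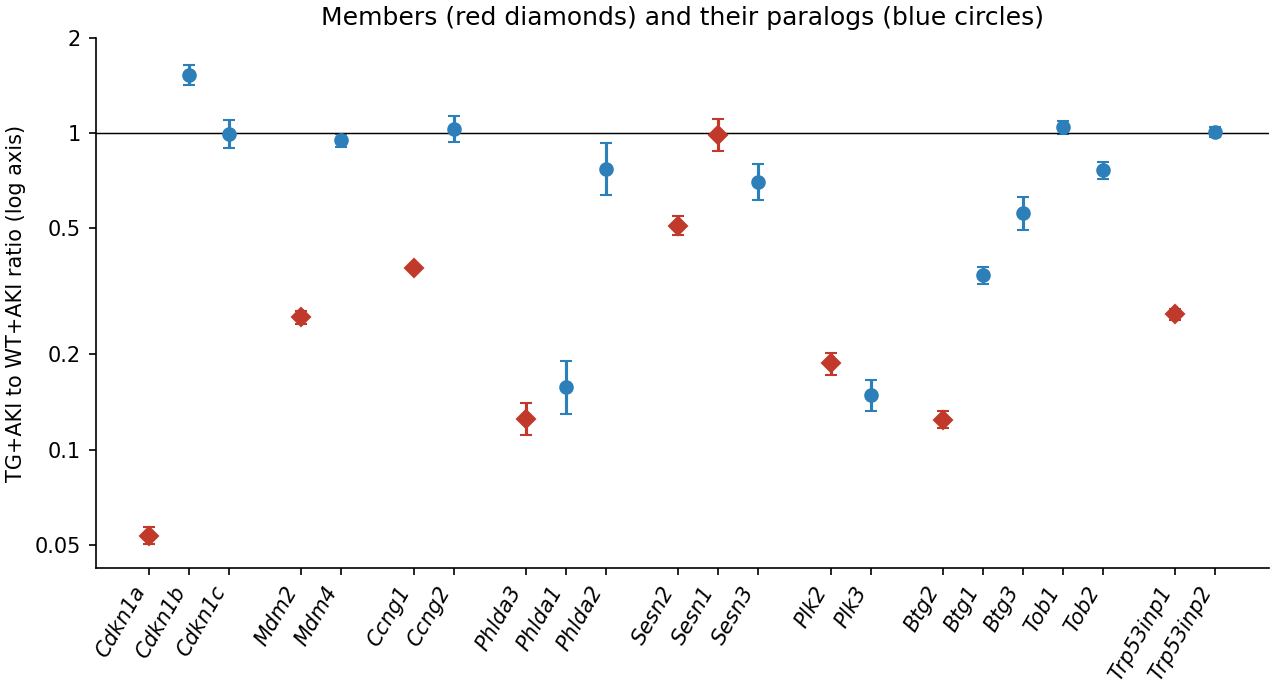
TG+AKI to WT+AKI ratio of normalized read counts (log axis, line at 1) for members (red diamonds) and their paralogs (blue circles), grouped by family, with bars for 95% counting intervals. *Cdkn1a*, *Mdm2*, *Ccng1*, *Btg2* and *Trp53inp1* lie below each of their plotted relatives, whereas *Plk3* (0.149) lies below *Plk2* (0.187) and *Phlda1* (0.158) close to *Phlda3* (0.125).

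A further 41 genes known as p53 targets, grouped by function, were all listed, and 35 reached a normalized read count of 10. Of these 35, 19 were at least 2-fold lower and 0 at least 2-fold higher, with a median log2 difference of −1.20. By their mean over both libraries 32 of the 41 genes reached 10, and 18 of those 32 were at least 2-fold lower, against 6.26% of the 9853 genes that reached 10 in this way. A mean of 10 can also be reached through 1 library alone, so this filter does not remove selection through the WT kidney. The lists were chosen with earlier results of these data known, and the pooling and the filter on the mean after seeing the data. These counts are therefore a description of the same 2 libraries and not a separate check of the 10 genes.

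All 13 apoptosis targets passed the filter and all 13 were lower, against 48.8% of all 10294 genes. Of the 13, 11 were at least 2-fold lower, and the median log2 difference of the 13 was −1.68. Some passed only through their level in the WT kidney, and by the mean over both libraries 12 reached 10, of which 10 were at least 2-fold lower. *Eda2r*, a receptor of the TNF receptor family, was at 63.9 in the WT kidney (2711 reads) and at 3.26 in the TG kidney (108 reads), 19.6-fold lower (95% interval 16.2 to 23.99). *Tnfrsf23*, a decoy receptor for the death ligand TRAIL, was at 28.5 and 1.36 (1209 and 45 reads), 20.99-fold lower (95% interval 15.6 to 28.9). *Tnfrsf10b*, the mouse TRAIL death receptor, was at 28.2 and 4.47, 6.32-fold lower (95% interval 5.32 to 7.55). The 2 apoptosis targets that did not reach 2-fold had log2 differences of −0.90 (*Bax*) and −0.58 (*Ei24*), and they are named after their values were seen.

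The 12 DNA repair and checkpoint targets were mixed. Of the 10 that passed the filter, 8 were lower and 2 higher, 4 were at least 2-fold lower, and the median log2 difference was −0.91. *Gtse1*, whose protein moves p53 out of the nucleus in G2 phase, was at 26.4 in the WT kidney and 1.54 in the TG kidney (1119 and 51 reads), 17.1-fold lower (95% interval 12.9 to 23.2). *Sfn*, which encodes the checkpoint protein 14-3-3 sigma, was at 51.6 and 3.93, 13.2-fold lower (95% interval 11.0 to 15.8). *Polk*, a translesion DNA polymerase, was at 50.3 and 17.9, 2.81-fold lower (95% interval 2.57 to 3.08). *Gtse1* and *Sfn* are known for cell cycle checkpoints rather than for repair itself.

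Among the 16 targets with metabolic and other roles, differences ran both ways. Of the 12 that passed the filter, 7 were lower and 5 higher, 4 were at least 2-fold lower, and the median log2 difference was −0.35. The median depended on the filter, and was −1.77 among genes that reached 50, where that of the apoptosis targets was −1.57 and that of the repair and checkpoint targets −1.44. By the mean over both libraries 4 of 10 were at least 2-fold lower, as were 4 of 10 repair and checkpoint targets. *Psrc1*, a spindle and Wnt pathway gene, was at 28.9 in the WT kidney and 1.57 in the TG kidney (1227 and 52 reads), 18.4-fold lower (95% interval 13.96 to 24.8). *Ephx1*, an epoxide hydrolase, was at 394 and 55.5, 7.09-fold lower (95% interval 6.76 to 7.44).

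In promoter windows the further targets held an exact half-site in 9 of 42 windows (21.4%), for 30 genes matched. The share was 36.4% of the 11 windows of the repair and checkpoint targets, 33.3% of the 12 windows of the apoptosis targets and 5.26% of the 19 windows of the metabolic and other targets. Among the members the corresponding share was 45.5% of 11 windows. It was 7.69% of the 26 windows of the p53 regulators and 8.36% of all 32851 windows.

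Most genes that act on p53 were within 2-fold between the kidneys, as were most of all compared genes. Of 19 regulators that passed the filter, 7 were lower and 12 higher, 1 was at least 2-fold lower and 0 were at least 2-fold higher. Among all 10294 genes, 7.12% were at least 2-fold lower and 5.74% at least 2-fold higher. The median log2 difference of the regulators was 0.08, a sign that turns under other scalings. *Ppp1r13l*, which encodes iASPP, an inhibitor of p53, was at 13.3 in the WT kidney and 2.96 in the TG kidney, 4.49-fold lower (95% interval 3.62 to 5.63), and it passed the filter only through the WT kidney. By the mean over both libraries 0 of 18 regulators were at least 2-fold lower, against 6.26% of all genes that reached 10 in this way. *Setd7*, a lysine methyltransferase, was at 60.4 and 35.4, with a log2 difference of −0.75, and *Ppm1d*, the phosphatase Wip1 and itself known as a p53 target, was at 20.1 and 11.7, with a log2 difference of −0.73. *Cdkn2a*, whose alternative product restrains Mdm2, was not analysed here.

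**Figure D4:**
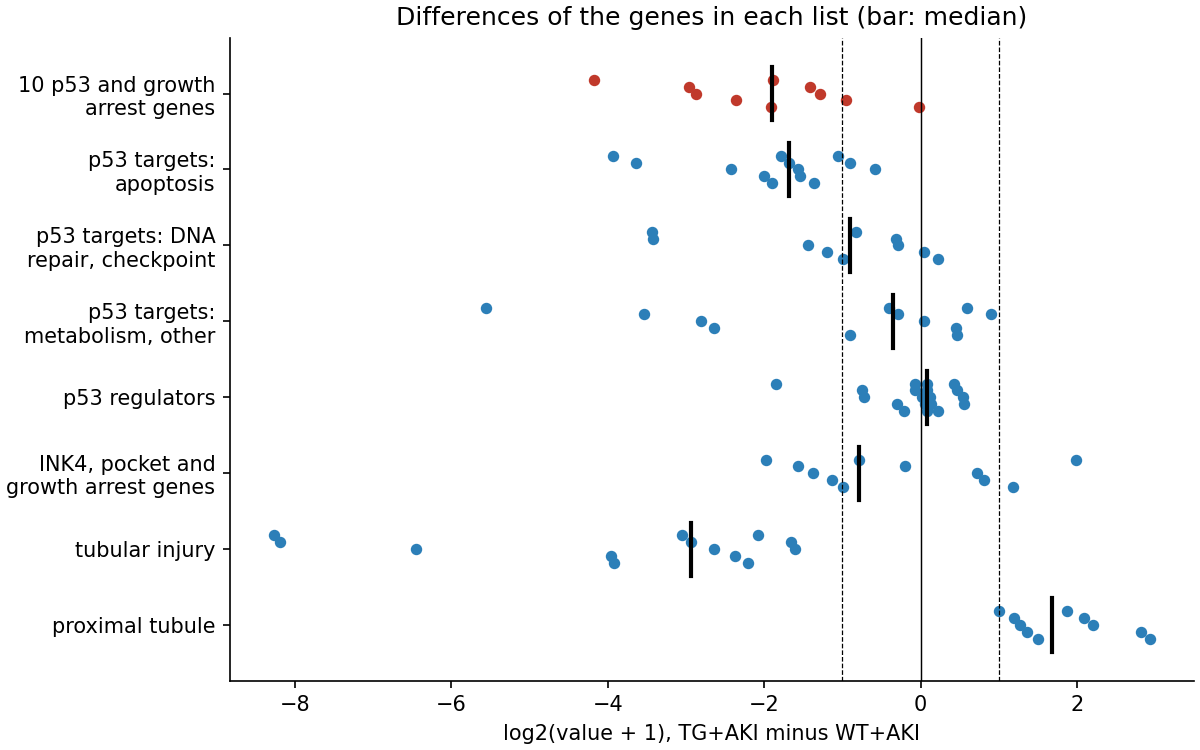
Difference in log2(normalized read count + 1), TG+AKI minus WT+AKI, of each gene that passed the filter (points) in the 10 genes (red) and in 7 other lists (blue), with a bar at each list's median and dashed lines at a 2-fold difference. The medians run from −2.94 for tubular injury genes through −1.90 for the 10 genes and 0.08 for p53 regulators to 1.68 for proximal tubule markers.

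Other growth arrest genes differed in both directions. Of 11 INK4 inhibitors, pocket proteins and growth arrest genes that passed the filter, 4 were at least 2-fold lower and 2 at least 2-fold higher. Among all 10294 genes these shares were 7.12% and 5.74%. The median log2 difference of the 11 genes was −0.78. Some of the lower genes, among them *Gadd45b*, passed only through their level in the WT kidney. By the mean over both libraries 11 genes reached 10, of which 4 were at least 2-fold lower. *Gadd45b*, a stress sensor, was at 18.1 in the WT kidney and 3.83 in the TG kidney, 4.71-fold lower (95% interval 3.90 to 5.73), and *Ddit4*, an inhibitor of mTORC1, was at 63.2 and 20.7, 3.06-fold lower (95% interval 2.81 to 3.33). *Gas2*, a growth arrest gene of the cytoskeleton, was higher, at 82.9 in the WT kidney and 331 in the TG kidney, a ratio of 3.99 (95% interval 3.84 to 4.14). The INK4 genes *Cdkn2b* (153 and 36 reads), *Cdkn2c* (394 and 247 reads) and *Cdkn2d* (203 and 152 reads) were under the filter in both libraries, and are named after their values were seen.

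Lower *Cdkn1a* was not accompanied by higher levels of the cell cycle genes that p21 is known to repress through the DREAM complex. All 19 of these genes that were listed had lower normalized read counts in the TG kidney, and the 95% intervals of 18 ratios lay below 1. Among the 9535 listed genes under the filter, 53.5% were lower and 22.3% had an interval below 1. The levels of the 19 genes were low, summing to 77.7 in the WT kidney and 36.2 in the TG kidney, and 1 gene passed the filter. This was *Mcm2*, a subunit of the replicative helicase, at 18.7 in the WT kidney (794 reads) and 10.2 in the TG kidney (336 reads), with a log2 difference of −0.82. *Mki67*, the common proliferation marker, had 253 reads in the WT kidney and 50 in the TG kidney, a ratio of 0.253 (95% interval 0.183 to 0.344), and is named after its values were seen.

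Markers of tubular injury and of cell types differed between the same libraries, and their part in the differences of the 10 genes was not tested. All 13 tubular injury genes were at least 2-fold lower in the TG kidney, with a summed normalized read count of 13480 in the WT kidney and 941 in the TG kidney. Some of them passed the filter only through their level in the WT kidney. By the mean over both libraries 11 reached 10, and all 11 were at least 2-fold lower, against 6.26% of all genes that reached 10 in this way. Some of these 11, such as *Havcr1*, reached that mean through the WT kidney alone. *Havcr1*, which encodes the injury marker KIM-1, was at 1169 in the WT kidney (49554 reads) and 2.78 in the TG kidney (92 reads). *Lcn2*, which encodes NGAL, was at 249.8 (10589 reads) and 1.87 (62 reads), and *Krt20*, a keratin of injured tubules, at 399 (16926 reads) and 0.362 (12 reads). *Havcr1*, *Krt20* and *Lcn2* had log2 differences of −8.27, −8.20 and −6.45, each below that of *Cdkn1a*.

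Proximal tubule markers stood the other way, and markers of later segments were mixed. All 10 proximal tubule markers were at least 2-fold higher in the TG kidney, with a median log2 difference of 1.68 and a sum of 5813 in the WT kidney and 21770.1 in the TG kidney. *Slc34a1*, a phosphate transporter, was at 764 and 5397, *Acsm2* at 598 and 4576, and *Slc5a12*, a lactate transporter, at 140.2 and 648. Of the 5 thick ascending limb markers 4 passed the filter and 3 of these were at least 2-fold higher, with sums over the 5 of 1949 and 4273, led by *Egf* at 54.3 and 1159.6. *Slc12a1* was at 395 and 1049 and *Kcnj1* at 63.5 and 135, while *Umod* (log2 difference 0.43) did not reach 2-fold and *Cldn16* (9.10 and 8.27) was under the filter. The 7 distal tubule and collecting duct markers included 2 that were at least 2-fold higher, *Slc12a3* (98.5 and 507) and *Slc4a1* (11.5 and 51.3), with *Calb1* at 88.2 and 163, *Scnn1b* lower at 44.5 and 36.9, *Atp6v1g3* at 42.0 and 40.98, and sums over the 7 of 496 and 1077.

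Podocyte and endothelial markers had medians near 0, and most stromal and macrophage markers were lower. The 5 podocyte markers had a median log2 difference of −0.05 and sums of 423 and 454, with *Synpo* at −0.47 and *Podxl* at 0.19 on the log2 scale. The 5 endothelial markers had a median of 0.07 and sums of 282 and 305, with *Kdr* at 0.71, *Pecam1* at −0.45 and *Tek* at 0.19. Of the 6 fibroblast and mural markers 3 were at least 2-fold lower, namely *Col1a1* (−2.01), *Col3a1* (−1.91) and *Dcn* (−1.11), while *Acta2* was at −0.02, with sums of 529.6 and 247. Of the 7 macrophage markers 5 were at least 2-fold lower, including *Cd68* (−3.99), *Itgam* (−3.35) and *Lyz2* (−1.72), while *Csf1r* was higher at 37.5 and 43.0, a ratio of 1.15 (95% interval 1.07 to 1.23), with sums of 173 and 74.8. Some macrophage markers passed the filter only through the WT kidney, and by the mean over both libraries 6 reached 10, of which 4 were at least 2-fold lower. *Umod*, *Cldn16*, *Scnn1b*, *Atp6v1g3*, *Acta2* and *Csf1r* are named after their values were seen. The 3 neutrophil markers listed, *S100a8*, *S100a9* and *Csf3r*, summed to 7.38 and 1.42, and the 6 T and B cell markers to 1.89 and 2.99, with none of these 9 genes at a normalized read count of 10 in either library.

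The differences of the 10 genes were recomputed under other scalings of the libraries and other pseudocounts. All 50 recomputed log2 differences kept their sign. Scaling to equal column totals moved the median log2 difference of all genes by −0.27 and a scaling in which genes at 100 or more in both libraries had a median ratio of 1 by −0.14, and under both *Sesn2* also became at least 2-fold lower (−1.22 and −1.09), which made 9 of 10. *Cdkn1a* stayed the lowest and *Sesn1* the highest of the 10 genes under each of these settings.

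**Figure D5:**
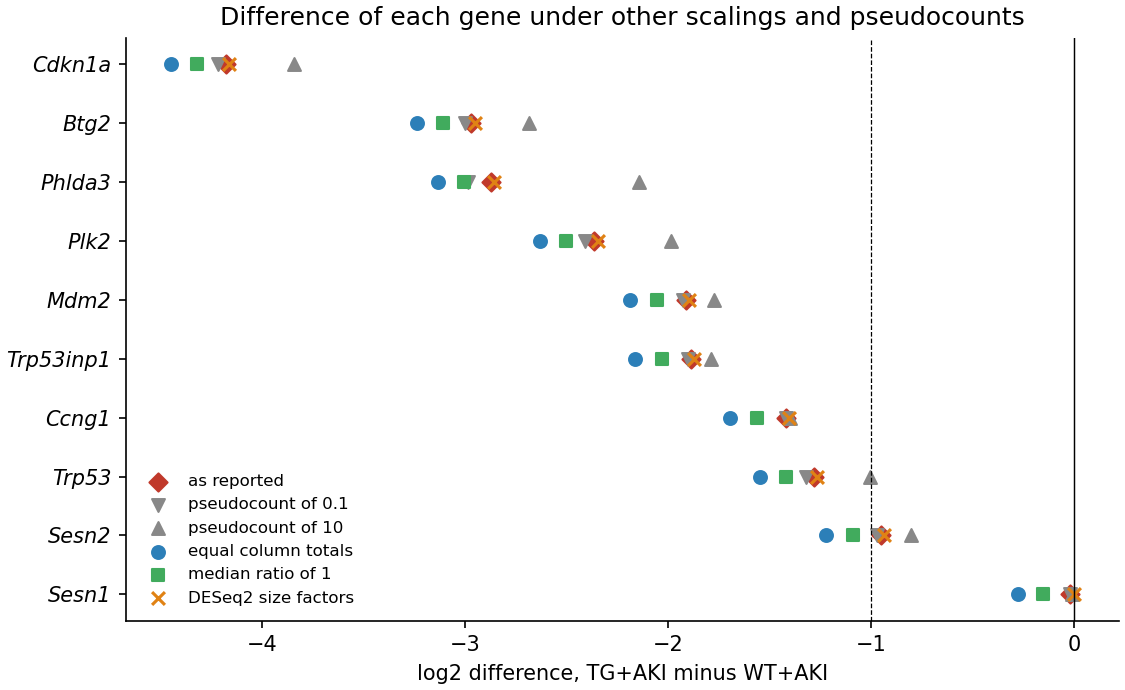
Log2 difference of each gene, TG+AKI minus WT+AKI, as reported (red diamond) and under pseudocounts of 0.1 and 10 (triangles), equal column totals (blue circle), a median ratio of 1 (green square) and DESeq2 size factors (cross), with a dashed line at a 2-fold difference. *Sesn2* lies on both sides of the dashed line, from −0.95 as reported to −1.22 at equal column totals, and the other 9 genes keep their side of it.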

How the data were processed

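The deposited table gave 1 normalized signal value per gene and library, made by the authors from reads per gene; columns of per-sample values not used numbered 0. The kit for the mRNA libraries was a stranded one per the labels, and the submitters' processing notes name STAR 2.7.3a, HTSeq, DESeq2, edgeR, Cufflinks 2.2.1 and FastQC and the mouse build mm10. Whether counting used the strand, and with which gene annotation, is not given in the sources used here. Values came in whole steps of a size fixed within each column (100% within 0.05 of a whole number of steps), so reads were recovered by division. The step, 0.0236 in WT+AKI and 0.0302 in TG+AKI, equals that given by edgeR's TMM factors (trimmed mean of log ratios), 1.10 and 0.909, so the values are counts per 1000000 reads (CPM) of the TMM-scaled library. No batch or run information was found.

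Genes at 10 or more in at least 1 library were compared as log2(value + 1), which understates the difference of low genes, and genes that differed there by 2-fold or more were counted. On that scale *Gadd45a* (2.05-fold lower as a plain ratio, in the repair and checkpoint list) fell just short of 2-fold. With 1 library per group no p-value was computed and no count test was run. Ratios carry 95% Clopper-Pearson intervals on the recovered reads, ratios between genes exact conditional intervals, and levels exact Poisson intervals; reads without molecular identifiers are not independent molecules. The intervals and counts were tried on simulated reads that held counting error only, so that trial says nothing about differences between animals. Named genes are the members, *Inmt*, the listed paralogs, the 3 largest absolute log2 differences at 10 or more in each other list, *Havcr1* and *Lcn2*; names outside this rule are marked, and 2 genes it would name are left out. The members and lists were chosen with earlier results of these data known. Gene positions and lengths are from GENCODE M21 (GRCm38), and promoter windows from RefSeq (GRCm38.p6). The search for pairs of half-sites with 1 departure, the ratios to paralogs and *Trp53* within a library, the filter on the mean and the pooled list of 41 targets were chosen after seeing the data. Alternatives were pseudocounts of 0.1 and 10, 3 other scalings, no filter, a filter of 50 and union exon lengths. Python 3.11.15, numpy 2.4.6, pandas 2.3.3, scipy 1.17.1 and matplotlib 3.10.9 were used, with R 4.3.3, edgeR 4.0.16 and DESeq2 1.42.0 for scaling factors only (DESeq2 size factors 1.14 and 0.879).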

Additional observations from a re-analysis of the deposited data

How the results depend on the processing

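The count of members at least 2-fold lower was 8 under both other pseudocounts, DESeq2 size factors, no filter and a filter of 50, and 9 at equal column totals and at a median ratio of 1. The median log2 difference of the members was −1.78 with a pseudocount of 10, −2.17 at equal column totals and −2.04 at a median ratio of 1. Over all compared genes, the counts at least 2-fold lower and higher were 408 and 372 with a pseudocount of 10, 1110 and 369 at equal column totals and 295 and 374 with a filter of 50, and 1150 were lower with no filter. Genes at least 2-fold higher were 44.6% of those past 2-fold as reported, 24.9% at equal column totals, 34.0% at a median ratio of 1 and 55.9% with a filter of 50. Of 104 medians of 15 other lists, 98 kept their sign. At equal column totals and a median ratio of 1 the medians of p53 regulators (−0.19 and −0.064) and endothelial markers (−0.20 and −0.073) turned below 0, and with a filter of 50 those of the INK4, pocket protein and growth arrest list (0.73) and podocyte markers (0.19) turned above 0; the filter leaves fewer genes, and the cause was not tested otherwise. Using union exon lengths, 7 members in WT+AKI and 2 in TG+AKI kept their place in the order by level. No paired analysis was possible because each group has 1 library, and leaving out a library leaves no comparison. Depth limits the genes under the filter, such as *Trp63* with 31 and 14 reads.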
